A study of Mus musculus with 27 samples.

Results

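The integrated stress response and the unfolded protein response were read through 41 genes of mouse cells, 24 of them listed as ATF4 targets (Atf4 to Gdf15, with Atf4 itself) and 17 as ER chaperones (Hspa5 to Syvn1, with the sensors and degradation factors of the endoplasmic reticulum). The genes were taken by symbol from a given list, and all 41 were present among the 25192 gene symbols of the count table. The libraries were bulk RNA sequencing of 3 kinds of cultured mouse cells in 9 groups of 3. Embryonic fibroblasts (MEFs), macrophages grown from bone marrow (BMDMs) and cells labelled mouse aortic endothelial cells (MAECs) were each given imidazole propionate (ImP), a microbial metabolite of histidine, at 10 µg/mL for 1 h or for 2 h, and were set against unstimulated cells of the same kind (0 h). The comparisons ask whether these genes differ with ImP in any cell type, and how the 2 lists differ between cell types before any ImP. The labels name no strain, animal, passage or separate culture for a library, so p-values measure the spread between these libraries, which may be technical. They name no vehicle group at 1 h or 2 h, so time since handling and ImP cannot be told apart. Macrophages and fibroblasts were plated in equal number in 6-well plates and their libraries were made with a directional kit. The aortic cells were fewer per well, in 24-well plates, and had another RNA extraction kit and a low-input library kit, so plate format and kits cannot be told apart from that cell type.

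Total counts per library were 28754034 to 35583478 in macrophages, 30554596 to 36489015 in fibroblasts and 18955352 to 61029374 in the libraries labelled MAEC. Levels are given in CPM (counts scaled to a common library total) after TMM scaling over the 27 libraries, and levels of different genes are compared only as TPM (transcripts per such total), which divide by exon length. Averaged over the 9 libraries of a cell type, 12 of 12 macrophage markers were at 10 CPM or more in macrophages, and 7 of 11 fibroblast markers in fibroblasts. In the 9 libraries labelled MAEC only 1 of 14 endothelial markers (Eng) averaged 10 CPM or more. Their summed level was 97.6 to 144 CPM over these libraries, while the 9 fibroblast libraries had 88.5 to 119.8 CPM. Of the 11 endothelial markers tested against fibroblasts in unstimulated libraries, 7 were higher and 2 lower (Cdh5 and Flt1). Of all 16334 genes tested, 38.1% were higher and 34.8% lower. The higher markers were Eng, with a mean of 95.5 CPM against 1.63 CPM in fibroblasts, and Egfl7, Emcn, Esam, Nos3, Pecam1 and Tek, with means of 0.458 to 5.47 CPM. The defining endothelial genes Tie1, Erg and Cldn5 were at 0 in all 3 unstimulated libraries, and Cdh5 averaged 0.872 CPM. Over all 9 libraries labelled MAEC, 4 of 8 smooth muscle markers averaged 10 CPM or more, as did 10 of 11 fibroblast markers. The levels of the defining markers thus go against the label, and these cells are called aortic-labelled cells below. In the macrophage ImP groups 1 library of each time stood apart. Nfkbia, an early NF-kB target, had CPM values of 46.4, 42.1 and 42.5 (0 h), 261, 251 and 47.3 (1 h) and 52.1, 42.6 and 270.0 (2 h). The third library labelled 1 h was thus at the level of the 0 h and the other 2 h libraries. The third library labelled 2 h was at the level of the other 1 h libraries. Macrophage counts of members called with ImP, and Ppp1r15a and Gdf15, are therefore given with and without these 2 libraries. Most other macrophage values with ImP, the counts of libraries that do not overlap and the list means by library use all libraries as labelled.

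The integrated stress response is a shared answer to amino acid shortage, ER stress, haem shortage and viral RNA. Sensor kinases phosphorylate the initiation factor eIF2, most translation falls, and the Atf4 mRNA is translated into a transcription factor that turns on genes of amino acid uptake and synthesis, one-carbon metabolism and, under lasting stress, Ddit3 (CHOP). The unfolded protein response adds the sensors Ern1 (IRE1) and Atf6, and the transcription factor Xbp1, whose mRNA is spliced by IRE1, and these raise ER chaperones and the degradation machinery. Atf4 protein and spliced Xbp1 cannot be read from counts per gene, so the mRNA levels of their targets are what these data hold. In macrophages the pathway is known for its part in cytokine secretion and cholesterol-induced death, and in fibroblasts for the supply of serine, glycine and proline for collagen.

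Sequence motifs that ATF4 and the ER stress factors are known to bind were searched in the members' promoters, and a selection of the sites is shown. Sites in Hsp90b1 and Trib3, another site in Slc7a11 and the C/EBP-ATF site of Herpud1 are not shown. Promoter windows of RefSeq (GRCm38.p6, 250 bases before to 50 after the start) were found for 37 of the 41 members, 22 ATF4 targets and 15 ER chaperones. Each was searched on both strands for the ER stress response element (CCAAT, any 9 bases, then CCACG), its second form (ATTGG, any 1 base, then CCACG) and the C/EBP-ATF response element (TGATGNAA) and no base was part of matches to 2 of them. The first was in 7 of 15 ER chaperones and 0 of 22 ATF4 targets, with 0.137% of the windows of all 27025 genes. The second was in Herpud1 only among the members, with 0.044% of all genes. The third was in 7 of 22 ATF4 targets and 1 of 15 ER chaperones (Herpud1), with 4.51% of all genes. Capitals mark the match, on whichever strand it lies, each line reads 5′ to 3′ on the gene's strand, and positions count from the RefSeq start.
ER stress response element, in genes of chaperones, their partners and other ER factors, among them the degradation factor Syvn1:
Hspa5 (chr2:34772020-34772049, + strand, -65 to -47): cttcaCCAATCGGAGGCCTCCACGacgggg
Dnajc3 (chr14:118937822-118937851, + strand, -105 to -87): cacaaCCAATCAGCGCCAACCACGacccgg
Pdia6 (chr12:17266486-17266515, + strand, -98 to -80): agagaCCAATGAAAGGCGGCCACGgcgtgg
Creld2 (chr15:88819515-88819544, + strand, -126 to -108): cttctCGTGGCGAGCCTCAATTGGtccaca
Calr (chr8:84847069-84847098, - strand, -162 to -144): caacgCGTGGTCGACCCTCATTGGcccata
Syvn1 (chr19:6046527-6046556, + strand, -44 to -26): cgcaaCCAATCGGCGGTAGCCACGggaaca
Its second form, in the gene of an ER degradation factor:
Herpud1 (chr8:94386368-94386397, + strand, -52 to -42): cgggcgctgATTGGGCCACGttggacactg
C/EBP-ATF response element, in genes of amino acid metabolism, transport and stress regulation and of the lipoprotein receptor Vldlr:
Asns (chr6:7693214-7693243, - strand, -23 to -16): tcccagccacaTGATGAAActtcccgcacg
Pycr1 (chr11:120643833-120643862, - strand, -103 to -96): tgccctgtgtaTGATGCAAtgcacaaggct
Slc7a11 (chr3:50443642-50443671, - strand, -47 to -40): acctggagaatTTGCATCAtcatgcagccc
Vldlr (chr19:27216809-27216838, + strand, -200 to -193): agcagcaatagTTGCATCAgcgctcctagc
Nupr1 (chr7:126625562-126625591, - strand, -110 to -103): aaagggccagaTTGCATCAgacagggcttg
Chac1 (chr2:119351038-119351067, + strand, -193 to -186): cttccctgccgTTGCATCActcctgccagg
By GENCODE M21 the sites of Hspa5, Asns, Vldlr and Nupr1 lie within the gene's span and the others upstream of it. A match is a description of the letters and not evidence that a factor binds there.

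Before ImP, the ER chaperones were high in all 3 cell types, and the ATF4 targets were high in fibroblasts and aortic-labelled cells and low in macrophages. All 17 ER chaperones averaged 1 CPM or more in each cell type, while the ATF4 targets did so for 24 of 24 in aortic-labelled cells, 20 of 24 in macrophages and 23 of 24 in fibroblasts. The median level of the ER chaperones was 128 TPM in aortic-labelled cells, 90.8 TPM in macrophages and 92.3 TPM in fibroblasts. The median level of the ATF4 targets was 49.7, 8.46 and 41.2 TPM in the same order, and the median of all genes tested was 8.35, 15.3 and 18.5 TPM. The chaperones Calr, Hspa5 (BiP) and Hsp90b1 were the 3 most abundant of their list in every cell type. Among ATF4 targets, Phgdh, the first enzyme of serine synthesis, led in aortic-labelled cells and in fibroblasts, and Slc3a2, the heavy chain of amino acid exchangers, led in macrophages. The lowest ATF4 target was Slc7a11, the cystine importer, in aortic-labelled cells, Cth, an enzyme of cysteine synthesis, in macrophages, and the stress cytokine Gdf15 in fibroblasts. The light chain Slc7a5 pairs with the heavy chain Slc3a2, and the ratio of their TPM levels was 0.0673 ± 0.0221 in aortic-labelled cells, 0.0205 ± 0.00319 in macrophages and 1.64 ± 0.0737 in fibroblasts (SD, n = 3 each). The 3 libraries of each cell type stayed apart from those of the others in that ratio. The TPM ratio of Ddit3 to Atf4 was 1.13 ± 0.142 in aortic-labelled cells, 0.683 ± 0.181 in macrophages and 0.112 ± 0.0212 in fibroblasts (SD, n = 3 each). Ddit3 overlaps the opposite-strand gene Mars and the strand of counting is not given, so this ratio is uncertain. In bulk RNA, fewer expressing cells and less RNA per cell cannot be told apart in any of these levels.

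**Figure D1:**
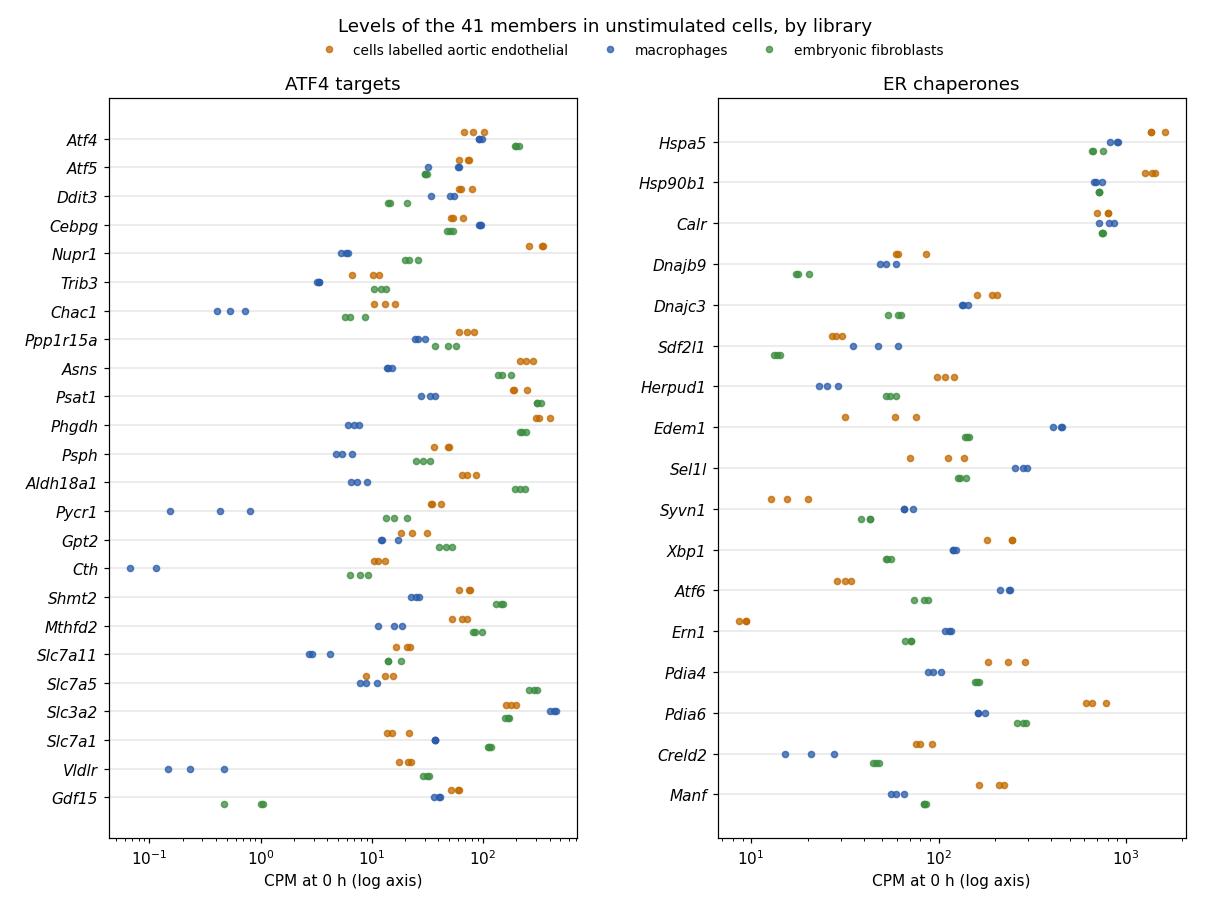
Level of each of the 41 genes in the unstimulated libraries, in CPM on a log axis, with 1 point per library for aortic-labelled cells (MAEC), macrophages (BMDM) and fibroblasts (MEF), the ATF4 targets and the ER chaperones in separate panels. The macrophage points of the amino acid synthesis genes lie below those of the other cell types, and the macrophage library of Cth at 0 is not drawn.

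Unstimulated macrophages had lower levels of most ATF4 targets than unstimulated fibroblasts, whose libraries share the kit. Macrophages had higher levels of most genes listed as ER chaperones, a list that includes sensors and degradation factors. Of the 24 ATF4 targets, 18 were lower and 5 higher at an adjusted p under 0.05 (edgeR quasi-likelihood test, Benjamini-Hochberg over 15389 genes), where 41.6% of all genes tested were lower and 39.1% higher. Of the 17 ER chaperones, 5 were lower and 10 higher. By role, 1 of the 3 chaperones themselves and all 3 co-chaperones were higher, and all 4 disulfide isomerases and secreted ER factors were lower. The other higher genes were sensors, transcription factors or degradation factors. The median log2 fold change was -2.31 for the ATF4 targets and 0.69 for the ER chaperones, with -0.054 for all genes tested. Scaling by library totals alone gave medians of -0.47 for all genes, -2.73 for the ATF4 targets and 0.27 for the ER chaperones. The share of called genes that were higher was 37.5% with library totals alone and 48.5% with TMM scaling.

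Among the ATF4 targets, all 8 genes of amino acid synthesis and both genes of mitochondrial one-carbon metabolism were lower in macrophages. Phgdh had 7.74, 6.17 and 7.003 CPM in macrophages, against 217, 243 and 226 CPM in fibroblasts. Its log2 fold change was -5.04 ± 0.101 (SE), 33-fold lower in macrophages (edgeR adjusted p = 1.43e-19). The next enzymes of the serine pathway, Psat1 and Psph, had log2 fold changes of -3.28 and -2.39, and Shmt2 and Mthfd2, which pass serine carbon into the mitochondrial folate cycle, -2.54 and -2.54. Pycr1, which makes the last step to proline, had 0.810, 0.436 and 0.153 CPM in macrophages, against 13.6, 20.7 and 15.9 CPM in fibroblasts. Aldh18a1, which makes the first step of the same pathway, had 9.14, 7.44 and 6.58 CPM in macrophages, against 195, 243 and 216 CPM in fibroblasts. The macrophage libraries lay below all fibroblast libraries in both genes, with log2 fold changes of -5.15 ± 0.281 for Pycr1 and -4.83 ± 0.142 for Aldh18a1. Asns (asparagine synthetase) and Gpt2 (alanine transaminase) were lower by the same test, at log2 fold changes of -3.44 and -1.75. Cth had 0, 0.0670 and 0.115 CPM in macrophages, against 6.39, 9.30 and 7.83 CPM in fibroblasts. It was near its floor in macrophages, with 5 counts over 3 libraries against 898 in fibroblasts, a depth-scaled fibroblast to macrophage ratio of 174 (95% interval 74.3 to 538, counting error only). Vldlr, a lipoprotein receptor, had 0.147, 0.469 and 0.230 CPM in macrophages, against 32.6, 31.4 and 29.3 CPM in fibroblasts. That is 24 macrophage counts against 3576 fibroblast counts, a ratio of 144 (96.9 to 226).

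The amino acid transporters split. Slc7a5 had 11.2, 8.88 and 7.84 CPM in macrophages, against 263, 289.7 and 308 CPM in fibroblasts. Its partner Slc3a2 had 456, 402 and 438 CPM in macrophages, against 158, 173 and 171 CPM in fibroblasts. The macrophage libraries were thus all lower for the light chain and all higher for the heavy chain, with log2 fold changes of -4.95 ± 0.122 and 1.36 ± 0.0670. The cystine importer Slc7a11 and the cationic amino acid importer Slc7a1 were lower, at -2.23 and -1.63. The regulators split as well. Atf4 itself had 93.0, 98.8 and 92.5 CPM in macrophages, against 201, 212 and 195 CPM in fibroblasts, lower at a log2 fold change of -1.10 ± 0.0761. Ddit3, its pro-apoptotic target, had 51.2, 34.2 and 54.7 CPM in macrophages, against 14.8, 21.03 and 13.9 CPM in fibroblasts, higher at 1.49 ± 0.198, although Ddit3 and the opposite-strand gene Mars overlap and the strand of counting is not given. Cebpg, a dimerisation partner of ATF4, had 96.9, 94.3 and 93.5 CPM in macrophages, against 51.0, 54.0 and 48.0 CPM in fibroblasts, higher at 0.89 ± 0.0810. Atf5, a related factor that overlaps Il4i1 and Nup62 on the opposite strand, was higher at 0.73 ± 0.240 (edgeR adjusted p = 0.0110), a call lost with library totals alone (edgeR adjusted p = 0.219) or without the first or the third unstimulated macrophage library (edgeR adjusted p = 0.0579 and 0.05221). Other named opposite-strand genes overlap Psph (Cct6a), Shmt2 (Ndufa4l2), Ppp1r15a (Tulp2), Pdia6 (Atp6v1c2), Syvn1 (Mrpl49) and Manf (Dcaf1), so their counts are likewise uncertain. The stress cytokine Gdf15 had 40.3, 40.9 and 36.8 CPM in macrophages, against 0.473, 1.05 and 1.01 CPM in fibroblasts, a log2 fold change of 5.54 ± 0.573 (edgeR adjusted p = 6.48e-07). Gdf15 was thus low in every fibroblast library and more abundant in every macrophage library. Trib3, a pseudokinase that holds ATF4 in check, Chac1, which degrades glutathione, and the stress gene Nupr1 were lower, at -1.86, -3.66 and -1.98. Ppp1r15a (GADD34), the phosphatase subunit that reverses eIF2 phosphorylation, had 26.2, 24.7 and 30.5 CPM in macrophages, against 37.1, 58.1 and 48.5 CPM in fibroblasts, and its log2 fold change of -0.83 ± 0.495 did not pass (edgeR adjusted p = 0.139). Without the third macrophage library of each ImP group, which share in the estimate of the spread, the edgeR adjusted p was 0.00106, and fitting only the 2 groups compared gave 5.52e-04.

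Among the ER genes, all 3 co-chaperones and all 3 sensors or transcription factors were higher in macrophages, and all 4 disulfide isomerases and secreted ER factors were lower. Sdf2l1, a component of chaperone complexes, had 61.01, 34.98 and 47.7 CPM in macrophages, against 13.3, 13.7 and 14.3 CPM in fibroblasts, a log2 fold change of 1.79 ± 0.143. Dnajb9, a co-chaperone of BiP that holds IRE1 in check, had 48.9, 59.5 and 52.7 CPM in macrophages, against 17.5, 20.3 and 17.9 CPM in fibroblasts, a log2 fold change of 1.53 ± 0.157. Both genes were higher in every macrophage library, and Dnajc3, another co-chaperone, was higher at 1.21. Edem1, which hands misfolded glycoproteins to degradation, had 410.1, 451 and 454 CPM in macrophages, against 139, 145 and 142 CPM in fibroblasts, higher at 1.62 ± 0.0748. Atf6, the sensor that is cut in the Golgi, had 213, 239.8 and 238 CPM in macrophages, against 74.0, 83.7 and 88.2 CPM in fibroblasts, higher at 1.48 ± 0.0774. Xbp1 and Ern1 were higher at 1.17 and 0.69, and Sel1l and Syvn1, which form the HRD1 ubiquitin ligase of ER-associated degradation, at 1.06 and 0.70. Herpud1, which recruits that complex, was lower, with 25.4, 28.98 and 23 CPM in macrophages, against 59.5, 54.9 and 52.6 CPM in fibroblasts, a log2 fold change of -1.11 ± 0.160. Creld2, a secreted ER stress factor, had 27.8, 15.2 and 20.9 CPM in macrophages, against 45.0, 46.4 and 48.0 CPM in fibroblasts, lower at -1.13 ± 0.141. The macrophage libraries lay below all fibroblast libraries in both genes. Pdia4, a disulfide isomerase, had 93.9, 103 and 88.0 CPM in macrophages, against 156, 164 and 160.2 CPM in fibroblasts, lower at -0.76 ± 0.0763. Pdia6, another, had 176, 163 and 162 CPM in macrophages, against 283, 292 and 263 CPM in fibroblasts, lower at -0.75 ± 0.0735. The secreted factor Manf was lower at -0.50. The 3 most abundant chaperones had the smallest fold changes of the ER list. Hspa5 was higher at 0.33 ± 0.0779 (edgeR adjusted p = 6.77e-04), while Hsp90b1 at -0.035 ± 0.0763 (95% interval -0.19 to 0.12) and Calr at 0.091 ± 0.0645 (-0.044 to 0.23) did not pass. With library totals alone Hsp90b1 was lower at -0.45 (edgeR adjusted p = 2.83e-05), Hspa5 was -0.084 and Calr -0.32, so the call of Hsp90b1 and the directions of Hspa5 and Calr depend on the scaling. Of the 7 ER chaperones with an ER stress response element, 3 were higher, 2 lower and 2 did not pass. All 7 ATF4 targets with the C/EBP-ATF element were lower, where 18 of all 24 ATF4 targets were. Of all genes tested 39.1% were higher and 41.6% lower.

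Set against fibroblasts, the aortic-labelled cells had higher levels of most ER chaperones, while their ATF4 targets were split between higher and lower. Of the 24 ATF4 targets, 11 were higher and 9 lower (edgeR, 16334 genes), where 38.1% of all genes tested were higher and 34.8% lower. Of the 17 ER chaperones, 11 were higher and 4 lower. The median log2 fold change was 0.27 for the ATF4 targets and 0.93 for the ER chaperones, with 0.11 for all genes tested. Scaling by library totals alone gave medians of -0.067 for all genes, 0.075 for the ATF4 targets and 0.74 for the ER chaperones. Gdf15 had 60.1, 51.7 and 60.7 CPM in aortic-labelled cells, against 0.473, 1.05 and 1.01 CPM in fibroblasts, a log2 fold change of 6.10 ± 0.291. Nupr1, a small chromatin protein induced by stress, had 343, 260.0 and 349 CPM in aortic-labelled cells, against 21.8, 26.2 and 19.8 CPM in fibroblasts, at 3.82 ± 0.209. No aortic-labelled library overlapped the fibroblast range in either gene, and the fits correspond to folds of 68.6 for Gdf15 and 14.1 for Nupr1. Ddit3 had 60.7, 63.6 and 80.2 CPM in aortic-labelled cells, against 14.8, 21.03 and 13.9 CPM in fibroblasts, at 2.05 ± 0.189. Atf5 had 73.1, 61.8 and 75.03 CPM in aortic-labelled cells, against 30.5, 30.02 and 31.2 CPM in fibroblasts, at 1.20 ± 0.190. Atf4 went the other way, with 82.6, 68.1 and 102 CPM in aortic-labelled cells, against 201, 212 and 195 CPM in fibroblasts, a log2 fold change of -1.26 ± 0.115. Atf4 mRNA was thus lower in the cells in which Ddit3, Nupr1 and Gdf15 mRNAs were higher. Ddit3 and Atf5 overlap genes on the opposite strand and the kits differ here, so their counts are uncertain. Slc7a5 had 15.4, 13.2 and 8.88 CPM in aortic-labelled cells, against 263, 289.7 and 308 CPM in fibroblasts, at -4.50 ± 0.189. Slc7a1 had 21.9, 15.2 and 13.9 CPM in aortic-labelled cells, against 111, 114 and 120.1 CPM in fibroblasts, at -2.75 ± 0.159. The other transporters, Slc3a2 (0.12, 95% interval -0.059 to 0.30) and Slc7a11 (0.36, -0.11 to 0.83), did not pass, nor did Trib3 (-0.32, -0.83 to 0.18) or Cebpg (0.18, -0.073 to 0.43). Of the 8 genes of amino acid synthesis, 5 were higher (Asns, Phgdh, Psph, Pycr1 and Cth, at 0.59 to 1.17) and 3 lower (Psat1, Aldh18a1 and Gpt2, at -0.59 to -1.54). Aldh18a1 had 86.6, 64.7 and 71.8 CPM in aortic-labelled cells, against 195, 243 and 216 CPM in fibroblasts, the lowest of these. Pycr1, the last enzyme of the same proline pathway, had 34.6, 41.8 and 35.2 CPM in aortic-labelled cells, against 13.6, 20.7 and 15.9 CPM in fibroblasts. The ends of the proline pathway thus differed in opposite directions. Both one-carbon genes were lower, Shmt2 at -1.01 and Mthfd2 at -0.48, and so was Vldlr at -0.59, while Chac1 (0.94) and Ppp1r15a (0.60) were higher. Without the third unstimulated aortic-labelled library the ATF4 targets called were 9 higher and 9 lower. The calls lost were Cth (edgeR adjusted p = 0.0383 with all libraries and 0.190 without it), which 13 alternatives in all left above the threshold, and Ppp1r15a (edgeR adjusted p = 0.00446 and 0.0737).

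Xbp1 had 247, 246 and 181 CPM in aortic-labelled cells, against 52.9, 52.2 and 55.9 CPM in fibroblasts, a log2 fold change of 2.08 ± 0.127 and the highest of the ER list. Dnajb9 had 86.1, 60.5 and 59.5 CPM in aortic-labelled cells, against 17.5, 20.3 and 17.9 CPM in fibroblasts, at 1.90 ± 0.182. Dnajc3 had 204, 192 and 161 CPM in aortic-labelled cells, against 63.1, 53.4 and 61.1 CPM in fibroblasts, at 1.66 ± 0.119. All 3 co-chaperones and all 4 disulfide isomerases and secreted ER factors were higher, and no aortic-labelled library overlapped the fibroblast range in those 7 genes. Pdia6 had 662, 613 and 777 CPM in aortic-labelled cells, against 283, 292 and 263 CPM in fibroblasts, at 1.30 ± 0.0915. Manf, Creld2 and Pdia4 were at 1.25, 0.83 and 0.57. Hspa5 and Hsp90b1 were higher at 1.07 and 0.93, and Calr did not pass at 0.044 (-0.11 to 0.20). Herpud1 was higher at 0.98 and Sel1l did not pass at -0.30 (-0.64 to 0.048). The Sel1l value rested on single unstimulated aortic-labelled libraries, at -0.59 without the first (edgeR adjusted p = 0.00565) and -0.15 without the third (edgeR adjusted p = 0.331), and it was -0.47 with library totals alone (edgeR adjusted p = 0.0232). The 4 lower genes were the sensors Ern1 and Atf6 and the degradation factors Edem1 and Syvn1. Ern1 had 9.45, 8.61 and 9.37 CPM in aortic-labelled cells, against 66.3, 71.1 and 71.5 CPM in fibroblasts, at -2.92 ± 0.133. Atf6 had 33.9, 31.6 and 28.7 CPM in aortic-labelled cells, against 74.0, 83.7 and 88.2 CPM in fibroblasts, at -1.37 ± 0.156. Edem1 had 75.4, 58.7 and 31.6 CPM in aortic-labelled cells, against 139, 145 and 142 CPM in fibroblasts, at -1.35 ± 0.190. In all 3 genes the aortic-labelled libraries lay below all fibroblast libraries. Syvn1 had 20.1, 15.6 and 12.8 CPM in aortic-labelled cells, against 43.0, 38.6 and 43.0 CPM in fibroblasts, at -1.35 ± 0.186. The third unstimulated library was the lowest of its group for Edem1 and Xbp1, and without it the log2 fold changes were -1.15 for Edem1, -1.28 for Syvn1 and 2.13 for Xbp1. The 4 lower ER genes have transcripts of 4859 (Syvn1) to 9231 exonic bases and the 11 higher ones of 1108 to 5141 (Dnajc3), ranges that overlap. Of the 7 ATF4 targets with the C/EBP-ATF element 4 were higher, 1 lower (Vldlr) and 2 did not pass (Slc7a11 and Trib3). Of the 7 ER chaperones with the ER stress response element 5 were higher, 1 lower (Syvn1) and 1 did not pass (Calr). Of all genes tested 38.1% were higher and 34.8% lower. Over 16200 genes the log2 fold change of this comparison was lower for longer genes (Spearman rho = -0.276 across genes, which are not independent), with a median of -0.65 for 6176 genes over 5000 bases and 0.60 for the rest. Between macrophages and fibroblasts, whose kit was the same, rho was -0.0481. The part of the library kit in the low values of long genes was not tested, since kit and cell type go together.

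Set against macrophages, the aortic-labelled cells had 19 of 24 ATF4 targets higher and 3 lower (edgeR, 16265 genes), where 42.2% of all genes tested were higher and 35.1% lower. Of the 17 ER chaperones, 10 were higher and 6 lower, and the median log2 fold change was 1.87 for the ATF4 targets, 0.52 for the ER chaperones and 0.25 for all genes tested. Scaling by library totals alone gave medians of 0.39 for all genes, 2.03 for the ATF4 targets and 0.68 for the ER chaperones. These comparisons share their unstimulated libraries with those above, so they are not independent of them. All 8 amino acid synthesis genes were higher, at log2 fold changes of 0.89 (Gpt2) to 7.60 (Cth, which rests on 5 macrophage counts), and so were both one-carbon genes. Phgdh had 324, 299 and 400.4 CPM in aortic-labelled cells, against 7.74, 6.17 and 7.003 CPM in macrophages, at 5.70 ± 0.133. Pycr1 had 34.6, 41.8 and 35.2 CPM in aortic-labelled cells, against 0.810, 0.436 and 0.153 CPM in macrophages, at 6.39 ± 0.312. Cth had 11.4, 10.6 and 13.3 CPM in aortic-labelled cells, against 0, 0.0670 and 0.115 CPM in macrophages, at 7.60 ± 0.582. The aortic-labelled libraries lay above all macrophage libraries in each gene of amino acid synthesis. Nupr1 had 343, 260.0 and 349 CPM in aortic-labelled cells, against 5.30, 5.90 and 6.12 CPM in macrophages, at 5.87 ± 0.228. Vldlr had 17.6, 22.4 and 21.3 CPM in aortic-labelled cells, against 0.147, 0.469 and 0.230 CPM in macrophages, at 6.22 ± 0.388. The 3 lower genes were the amino acid transporters Slc3a2 and Slc7a1 and the factor Cebpg. Slc3a2 had 178, 162 and 201 CPM in aortic-labelled cells, against 456, 402 and 438 CPM in macrophages, at -1.17 ± 0.0813. Slc7a1 had 21.9, 15.2 and 13.9 CPM in aortic-labelled cells, against 37.3, 37.5 and 37.1 CPM in macrophages, at -1.04 ± 0.172. Cebpg had 51.8, 53.7 and 66.0 CPM in aortic-labelled cells, against 96.9, 94.3 and 93.5 CPM in macrophages, at -0.64 ± 0.117. None of these 3 overlapped between the cell types, whereas Slc7a5 was higher at 0.52 ± 0.227 (edgeR adjusted p = 0.0462) with overlapping libraries, and 17 alternatives ended that call, DESeq2 among them (adjusted p = 0.0564). Fitting only the 2 groups compared also ended the calls of Atf5 (0.55, edgeR adjusted p = 0.114 in that fit) and Dnajb9 (0.44, edgeR adjusted p = 0.124). Atf4 did not differ past the threshold at -0.084 ± 0.118 (95% interval -0.33 to 0.17), nor did Gdf15 at 0.64 ± 0.326 (edgeR adjusted p = 0.0845), which passed at an edgeR adjusted p of 7.03e-05 without the third macrophage library of each ImP group. Among ER genes, Herpud1 had 121, 98.1 and 108 CPM in aortic-labelled cells, against 25.4, 28.98 and 23 CPM in macrophages, at 2.17 ± 0.149. Pdia6 had 662, 613 and 777 CPM in aortic-labelled cells, against 176, 163 and 162 CPM in macrophages, at 2.12 ± 0.0862. All 4 disulfide isomerases and secreted ER factors were again higher. Creld2 had 91.9, 75.8 and 79.2 CPM in aortic-labelled cells, against 27.8, 15.2 and 20.9 CPM in macrophages, at 2.04 ± 0.158. Manf had 211, 164 and 222 CPM in aortic-labelled cells, against 65.1, 59.1 and 56.0 CPM in macrophages, at 1.81 ± 0.104. The 4 ER genes with the lowest fold changes were the sensors Ern1 and Atf6 and the degradation factors Edem1 and Syvn1. Ern1 had 9.45, 8.61 and 9.37 CPM in aortic-labelled cells, against 108, 117 and 113 CPM in macrophages, at -3.53 ± 0.123. Edem1 had 75.4, 58.7 and 31.6 CPM in aortic-labelled cells, against 410.1, 451 and 454 CPM in macrophages, at -2.90 ± 0.201. Atf6 had 33.9, 31.6 and 28.7 CPM in aortic-labelled cells, against 213, 239.8 and 238 CPM in macrophages, at -2.78 ± 0.156. No library of these genes overlapped between the cell types. Syvn1 had 20.1, 15.6 and 12.8 CPM in aortic-labelled cells, against 65.1, 72.9 and 65.4 CPM in macrophages, at -1.98 ± 0.182, again with no overlap, and Sel1l (-1.28) and Sdf2l1 (-0.65) were lower too. Calr did not pass (0.029, -0.14 to 0.20). Longer genes had lower fold changes in this comparison too, at a Spearman rho of -0.197 over 16138 genes. All 7 ATF4 targets with the C/EBP-ATF element were higher, and of the 7 ER chaperones with the ER stress response element 5 were higher, 1 lower (Syvn1) and 1 did not pass (Calr).

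Other genes of both pathways, from lists chosen with earlier results of these data known, were counted the same way. The shares of all genes tested, higher and lower, were 39.1% and 41.6% for macrophages against fibroblasts, 38.1% and 34.8% for aortic-labelled cells against fibroblasts and 42.2% and 35.1% for aortic-labelled cells against macrophages. In macrophages against fibroblasts the aminoacyl-tRNA synthetases, which charge tRNAs and are induced by ATF4, were 2 higher and 17 lower of 19, with Yars at -2.81, Kars at -2.33 and Gars at -2.23. The further ATF4 targets were 3 higher and 15 lower of 18, with the glutamine transporter Slc38a2 at -2.19 and the folate enzymes Shmt1 and Mthfd1l at -3.79 and -3.03. The further ER folding genes were 3 higher and 16 lower of 23 (Pdia5 -5.17, Ero1lb 2.27, Txndc5 -1.30), and the further degradation genes 6 higher and 1 lower of 12 (Edem2 2.01, Edem3 1.27, Vcp -0.83). The eIF2 list was 5 higher and 6 lower of 12. The kinases Eif2ak1, Eif2ak3 and Eif2ak4 were among the higher, and Eif2s1 and all 5 subunits of the exchange factor eIF2B (Eif2b1 to Eif2b5) were the lower. The further regulators of the unfolded protein response were 6 higher and 5 lower of 12, with the pro-apoptotic Bcl2l11 at 3.68. In aortic-labelled cells against fibroblasts, the ER folding genes were 15 higher and 5 lower of 23, with Pdia3 at 2.38, Fkbp14 at 3.65 and the chaperone Hyou1 at -5.12, the degradation genes 9 higher and 2 lower of 12 and the regulators 3 higher and 7 lower of 12. The tRNA synthetases were 6 higher and 7 lower of 19, the further ATF4 targets 5 higher and 10 lower of 19 and the eIF2 list 6 higher and 6 lower of 12, with all 4 kinases lower. In aortic-labelled cells against macrophages, the tRNA synthetases were 18 higher and 1 lower of 19, the ER folding genes 19 higher and 2 lower of 23 and the further ATF4 targets 11 higher and 3 lower of 18. The degradation genes, the regulators and the eIF2 list were 5 higher and 4 lower of 12, 4 higher and 5 lower of 12 and 6 higher and 6 lower of 12.

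With ImP, no member passed the threshold in any of the 9 comparisons within a cell type by edgeR. In macrophages, 0 of 23 ATF4 targets (Cth was too low to be tested) and 0 of 17 ER chaperones passed at 1 h, where 0.0226% of 13251 genes did, at 2 h, where 0.0302% did, or between 2 h and 1 h, where 0.0% did. At an unadjusted p under 0.05 there were 2 ATF4 targets and 1 ER chaperone at 1 h, 2 and 1 at 2 h, and 0 and 0 between 2 h and 1 h, with 692, 816 and 218 of all genes. DESeq2 called 0 members at each of these, with 12 higher and 1 lower, 14 higher and 1 lower and 0 higher and 1 lower of all genes, and limma-voom called 0 members as well. The median log2 fold change of the ATF4 targets was 0.077 at 1 h and 0.091 at 2 h, that of the ER chaperones 0.00041 and 0.0012, and that of all genes tested 0.0028 and 0.0041. The 95% interval lay within a 2-fold change either way for 17 of 17 ER chaperones and 18 of 23 ATF4 targets at 1 h, the others being Chac1, Gdf15, Ppp1r15a, Pycr1 and Vldlr, and the counts at 2 h were the same. Hspa5 had CPM values of 823, 905 and 897 (0 h), 829, 879 and 857 (1 h) and 833, 867 and 911 (2 h), with log2 fold changes of -0.034 ± 0.0581 and -0.0048 ± 0.0581. Atf4 had CPM values of 93.0, 98.8 and 92.5 (0 h), 95.2, 103 and 98.8 (1 h) and 95.7, 84.6 and 101 (2 h), at 0.064 ± 0.0699 and -0.013 ± 0.0700, with the 3 groups overlapping.

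Ppp1r15a and Gdf15 had the largest log2 fold changes of the macrophage ATF4 targets at 1 h, and the libraries that stood apart decided whether they passed. Ppp1r15a had CPM values of 26.2, 24.7 and 30.5 (0 h), 85.9, 76.3 and 25.8 (1 h) and 26.1, 25.7 and 87.3 (2 h). Gdf15 had CPM values of 40.3, 40.9 and 36.8 (0 h), 113, 109 and 37.0 (1 h) and 44.0, 46.1 and 109 (2 h). In both genes the first and second 1 h libraries and the third 2 h library were high, and the third 1 h library was at the 0 h level, the layout of Nfkbia. As labelled, the log2 fold changes at 1 h were 1.21 ± 0.649 for Ppp1r15a (edgeR adjusted p = 0.952) and 1.13 ± 0.536 for Gdf15 (edgeR adjusted p = 0.941). Without the third library of each ImP group, they were 1.58 ± 0.0979 (edgeR adjusted p = 3.59e-07) and 1.49 ± 0.0740 (edgeR adjusted p = 2.99e-08), and these were the 2 ATF4 targets called of 23, where 0.824% of 13465 genes were called higher. Between 2 h and 1 h the same genes were lower without those libraries, at -1.63 ± 0.112 (edgeR adjusted p = 1.27e-06) and -1.29 ± 0.0833 (edgeR adjusted p = 7.60e-07), where 0.609% of genes were lower. At 2 h against 0 h edgeR called 0 members in that fit, and Ppp1r15a was at -0.059. At an unadjusted p under 0.05 there were 4 of 23 ATF4 targets and 1 of 17 ER chaperones, where 7.75% of all genes were. The libraries left out were picked from their own values in Nfkbia and other inflammatory genes, so these p-values are not an independent test. None of the 17 ER chaperones passed in that fit by edgeR, with medians of -0.017 at 1 h and -0.0010 at 2 h. At an unadjusted p under 0.05 there were 1, 1 and 0 of them at 1 h, at 2 h and between 2 h and 1 h. The shares of all genes were 7.40%, 7.75% and 5.55%. Atf4 (0.062 ± 0.0745) and Ddit3 (0.10 ± 0.201) did not pass at 1 h. Of the further pathway genes, only Cebpb, a C/EBP factor among the further ATF4 targets, passed in that macrophage fit, at 1.19 for 1 h (edgeR adjusted p = 0.0141), and as labelled the smallest edgeR adjusted p of any further pathway gene with ImP, over the 9 comparisons within a cell type, was 0.290. The labels give each library a code, and within a run of codes the numbers go up with time in 8 of 9 runs. The 1 exception is the third macrophage run, in which the library labelled 2 h has the lower number and the library labelled 1 h the higher, and these are the 2 libraries that stood apart. The labels do not say whether their times were exchanged, and both were kept under the times given.

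**Figure D2:**
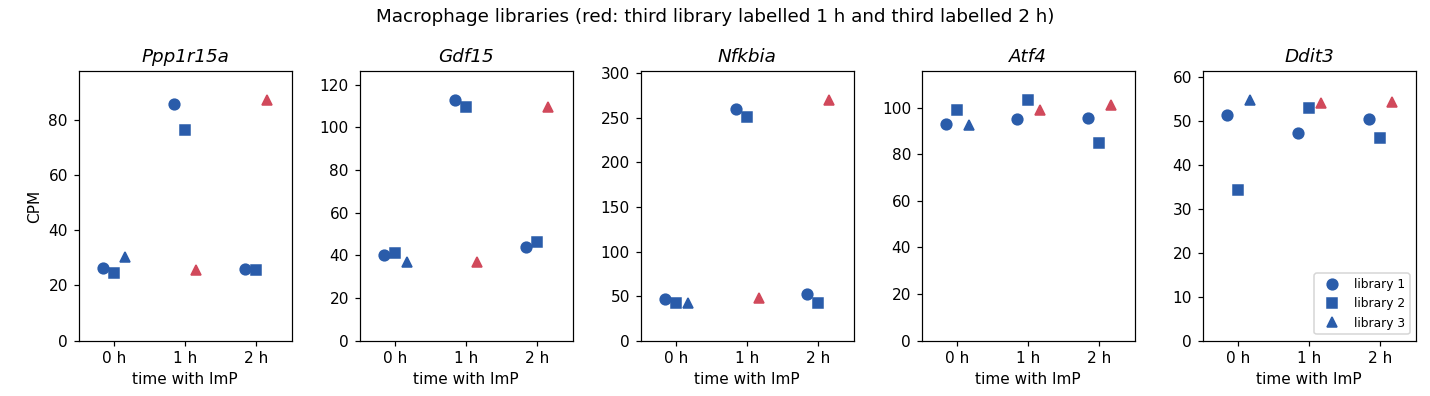
Level in each macrophage library, in CPM, of Ppp1r15a, Gdf15, Nfkbia, Atf4 and Ddit3 at 0, 1 and 2 h of ImP, with the third 1 h and the third 2 h library in red. In Ppp1r15a, Gdf15 and Nfkbia the red 1 h point lies at the level of the 0 h points and the red 2 h point at the level of the other 1 h points, while Atf4 and Ddit3 show no such layout.

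With all libraries as labelled, the other macrophage members with the smallest p had small fold changes. Slc7a1 had CPM values of 37.3, 37.5 and 37.1 (0 h), 37.7, 47.9 and 44.7 (1 h) and 41.6, 40.9 and 35.5 (2 h), at a log2 fold change of 0.22 ± 0.0938 for 1 h against 0 h (edgeR adjusted p = 0.922). Slc3a2 had CPM values of 456, 402 and 438 (0 h), 471, 485 and 457 (1 h) and 455, 462 and 461 (2 h), at 0.13 ± 0.0582 for 1 h. In these transporters all 1 h libraries lay above all 0 h libraries, as they did for Nupr1, 3 of 23 ATF4 targets and 0 of 17 ER chaperones where 4.63% of all genes did, and 0 and 1 (Xbp1) lay below where 5.49% did. Slc7a5 had CPM values of 11.2, 8.88 and 7.84 (0 h), 11.2, 11.9 and 8.67 (1 h) and 12.04, 12.2 and 12.3 (2 h), at 0.39 ± 0.151 for 2 h. Cebpg had CPM values of 96.9, 94.3 and 93.5 (0 h), 93.5, 92.5 and 108 (1 h) and 109, 108 and 100 (2 h), at 0.16 ± 0.0719 for 2 h. In both genes all 2 h libraries lay above all 0 h libraries. The proline enzyme Aldh18a1 had CPM values of 9.14, 7.44 and 6.58 (0 h), 9.29, 9.24 and 8.67 (1 h) and 10.8, 9.16 and 8.203 (2 h), at 0.28 ± 0.152 for 2 h. The serine enzyme Psph had CPM values of 5.45, 6.60 and 4.75 (0 h), 5.84, 5.43 and 5.19 (1 h) and 4.57, 4.74 and 4.44 (2 h), at -0.26 ± 0.171 for 2 h against 1 h. The 2 h libraries of Psph were the lowest, and those of Aldh18a1 overlapped the 0 h libraries. Dnajb9 had CPM values of 48.9, 59.5 and 52.7 (0 h), 49.6, 47.5 and 43.6 (1 h) and 49.7, 49.5 and 50.6 (2 h), at -0.20 ± 0.0802 for 1 h. Manf had CPM values of 65.1, 59.1 and 56.0 (0 h), 52.7, 61.02 and 53.4 (1 h) and 55.8, 54.1 and 55.4 (2 h), at -0.11 ± 0.0770 for 1 h and -0.12 ± 0.0771 for 2 h. Both overlapped between 1 h and 0 h. Pdia6 had CPM values of 176, 163 and 162 (0 h), 172, 180.2 and 171 (1 h) and 171, 168 and 166 (2 h), at 0.058 ± 0.0564 for 1 h. Ern1 had CPM values of 108, 117 and 113 (0 h), 123, 116 and 111 (1 h) and 119, 129.8 and 122 (2 h), at 0.14 ± 0.0624 for 2 h. All 2 h libraries of Ern1 lay above all 0 h libraries, and those of Pdia6 did not. Atf6 had CPM values of 213, 239.8 and 238 (0 h), 232, 235 and 249 (1 h) and 246, 245 and 239 (2 h), at 0.083 ± 0.0613 for 2 h. Xbp1 had CPM values of 120.0, 123 and 119.7 (0 h), 117, 117 and 116 (1 h) and 119, 119 and 124 (2 h), at 0.056 ± 0.0537 for 2 h against 1 h. These sensors and the factor Xbp1 thus lay close to their 0 h levels at both times. The second 0 h library was the lowest of its group for Ddit3 (34.2 CPM, where the other libraries had 51.2 and 54.7) and Atf5 (32.03 CPM, where they had 61.5 and 59.7). Counted over the lists, all 2 h libraries lay above all 0 h libraries for 4 ATF4 targets (Cebpg, Gdf15, Slc7a5 and Trib3) and 1 ER chaperone (Ern1) (all genes 5.1%) and below them for 2 (Chac1 and Psph) and 1 (Manf) (all genes 6.41%). Against the 1 h libraries they lay above for 1 (Slc7a5) and 1 (Xbp1) (all genes 3.25%) and below for 3 (Chac1, Gpt2 and Psph) and 1 (Pdia6) (all genes 3.92%).

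In fibroblasts 0 of 24 ATF4 targets and 0 of 17 ER chaperones passed at 1 h, at 2 h or between them by edgeR, where 0.0% of 14066 genes passed in each. At an unadjusted p under 0.05 the counts of ATF4 targets and ER chaperones were 0 and 2 at 1 h, 1 and 0 at 2 h, and 2 and 3 between them, with 826, 342 and 1709 of all genes. DESeq2 called 9 higher and 1 lower of all genes at 1 h, 5 higher and 0 lower at 2 h and 242 higher and 66 lower between them, with 1 member (Slc7a1, higher at 2 h than at 1 h), and limma-voom called 0. The median log2 fold change at 1 h was 0.093 for the ATF4 targets and 0.10 for the ER chaperones, and at 2 h 0.012 and -0.0064, with 0.0052 and -0.0052 for all genes tested. The 1 h medians rested on the first 1 h library, which was the highest of its group for 19 of 23 ATF4 targets and 12 of 17 ER chaperones and for 39.8% of all genes at 1 CPM or more. Without it they were 0.018 and 0.048. The second 0 h library was likewise the highest for 18 of 23 ATF4 targets (34.4% of all genes), and the third 2 h library the lowest for 19 of 23 (38.7% of all genes). The ATF4 targets of fibroblasts were thus high or low together in single libraries of a group. The 95% interval lay within a 2-fold change for 17 of 17 ER chaperones and 23 of 24 ATF4 targets at 1 h, the exception being Gdf15, and for the same counts at 2 h.

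Slc7a1 had CPM values of 111, 114 and 120.1 (0 h), 116, 108 and 110.2 (1 h) and 137, 137 and 128 (2 h), at log2 fold changes of 0.19 ± 0.0630 for 2 h against 0 h and 0.25 ± 0.0630 for 2 h against 1 h (edgeR adjusted p = 0.176). All 2 h libraries lay above all others in this gene, and without the first 1 h library the log2 fold change for 2 h against 1 h was 0.29 (edgeR adjusted p = 0.0356). Slc7a5 had CPM values of 263, 289.7 and 308 (0 h), 302, 284 and 285 (1 h) and 329, 318 and 303 (2 h), at 0.12 ± 0.0683 for 2 h against 0 h. Psph had CPM values of 25.4, 33.9 and 28.8 (0 h), 30.1, 32.02 and 32.97 (1 h) and 28.6, 27.8 and 24.5 (2 h), at -0.15 ± 0.109 for 2 h against 0 h and -0.25 ± 0.109 for 2 h against 1 h. The 2 h libraries of Psph lay below all 1 h libraries and overlapped the 0 h libraries. Atf4 had CPM values of 201, 212 and 195 (0 h), 244, 223 and 211 (1 h) and 222, 214 and 193 (2 h), at 0.15 ± 0.0747 and 0.022 ± 0.0747. Nupr1 had CPM values of 21.8, 26.2 and 19.8 (0 h), 38.6, 28.0 and 20.3 (1 h) and 24.5, 23.2 and 16.3 (2 h), at 0.34 ± 0.230 for 1 h against 0 h and -0.46 ± 0.231 for 2 h against 1 h. Trib3 had CPM values of 10.6, 13.5 and 12.1 (0 h), 20.4, 14.1 and 10.7 (1 h) and 13.6, 12.3 and 9.43 (2 h), at 0.31 ± 0.212 for 1 h. The times overlapped in these 3 genes, and in each the first 1 h library was the highest of all. Ddit3 had CPM values of 14.8, 21.03 and 13.9 (0 h), 23.4, 19.5 and 15.3 (1 h) and 20.4, 18.9 and 14.2 (2 h), at 0.21 ± 0.197 and 0.079 ± 0.197. Ppp1r15a had CPM values of 37.1, 58.1 and 48.5 (0 h), 77.5, 57.4 and 44.8 (1 h) and 57.8, 52.8 and 41.9 (2 h), at 0.31 ± 0.223 for 1 h. The times overlapped in both, again with the first 1 h library the highest.

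Of the fibroblast ER chaperones, Manf had CPM values of 85.5, 84.0 and 83.6 (0 h), 97.6, 95.7 and 94.4 (1 h) and 88.1, 86.7 and 80.8 (2 h), at 0.17 ± 0.0638 for 1 h against 0 h and -0.19 ± 0.0637 for 2 h against 1 h. All 1 h libraries of Manf were above all others. Pdia6 had CPM values of 283, 292 and 263 (0 h), 352, 318 and 294 (1 h) and 301, 292 and 256 (2 h), at 0.19 ± 0.0816 for 1 h and -0.20 ± 0.0816 for 2 h against 1 h. Creld2 had CPM values of 45.0, 46.4 and 48.0 (0 h), 47.9, 56.0 and 52.5 (1 h) and 48.5, 45.8 and 45.4 (2 h), at 0.16 ± 0.0806 for 1 h and -0.18 ± 0.0806 for 2 h against 1 h. The 1 h libraries of Pdia6 lay above all 0 h libraries, and those of Creld2 overlapped them. Atf6 had CPM values of 74.0, 83.7 and 88.2 (0 h), 87.5, 76.4 and 74.0 (1 h) and 88.4, 91.99 and 90.4 (2 h), at 0.11 ± 0.0828 for 2 h. Syvn1 had CPM values of 43.0, 38.6 and 43.0 (0 h), 46.4, 39.8 and 46.6 (1 h) and 43.6, 45.8 and 47.9 (2 h), at 0.11 ± 0.0850 for 2 h. All 2 h libraries of both lay above all 0 h libraries. Edem1 had CPM values of 139, 145 and 142 (0 h), 161, 144 and 142 (1 h) and 161, 161 and 136 (2 h), at 0.075 ± 0.0780 for 2 h. Hspa5 had CPM values of 665, 752 and 661 (0 h), 865, 764 and 716 (1 h) and 748, 707 and 636 (2 h), at 0.16 ± 0.0854 and -0.018 ± 0.0854. In both genes the 3 times overlapped. All 1 h libraries of a fibroblast gene lay above all 0 h libraries for 0 ATF4 targets and 3 ER chaperones (Manf, Pdia6 and Sdf2l1), where 5.99% of all genes did, and below them for 0 and 0, where 3.94% did. At 2 h against 0 h the counts were 1 (Slc7a1) and 2 (Atf6 and Syvn1) above (all genes 7.04%) and 0 and 0 below (all genes 3.16%), and for 2 h against 1 h 2 (Slc7a1 and Slc7a5) and 2 (Atf6 and Sel1l) above (all genes 10.4%) and 1 (Psph) and 2 (Manf and Sdf2l1) below (all genes 7.83%).

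In aortic-labelled cells 0 of 24 ATF4 targets and 0 of 17 ER chaperones passed in the 3 comparisons by edgeR, where 0.0% of 14779 genes passed in each. At an unadjusted p under 0.05 the counts of ATF4 targets and ER chaperones were 3 and 2 at 1 h, 5 and 1 at 2 h, and 2 and 0 between them, with 733, 1360 and 293 of all genes. DESeq2 called 0 higher and 1 lower of all genes at 1 h, 15 higher and 7 lower at 2 h and 4 higher and 2 lower between them, with 0 members, and limma-voom called 0. The biological coefficient of variation was 0.326 here and 0.126 in both other cell types. The median log2 fold change of the ATF4 targets was -0.051 at 1 h and -0.14 at 2 h, that of the ER chaperones 0.15 and 0.052, and that of all genes tested 0.0049 and 0.015. Without the third 0 h library the ER medians were 0.079 and -0.0095. The first library of each time was the deepest of its group and was the highest for 13, 14 and 10 of 17 ER chaperones at 0, 1 and 2 h, with 39.98%, 52.1% and 37.8% of all genes, and the part of depth in this was not tested. The 95% interval lay within a 2-fold change for 23 of 24 ATF4 targets and 16 of 17 ER chaperones at 1 h and for 22 of 24 and 16 of 17 at 2 h, the exceptions being Cth, Chac1 and Syvn1.

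Cebpg had CPM values of 51.8, 53.7 and 66.0 (0 h), 42.9, 43.5 and 35.3 (1 h) and 40.2, 45.2 and 43.1 (2 h). All ImP libraries lay below all 0 h libraries, with log2 fold changes of -0.48 ± 0.145 for 1 h (edgeR adjusted p = 0.826) and -0.41 ± 0.145 for 2 h (edgeR adjusted p = 0.539). With all 27 libraries in 1 model the edgeR adjusted p was 0.0448 and 0.0496. Chac1 had CPM values of 10.4, 16.2 and 13.1 (0 h), 11.6, 12.6 and 16.5 (1 h) and 9.87, 8.76 and 6.52 (2 h), at -0.66 ± 0.266 for 2 h against 0 h and -0.71 ± 0.266 for 2 h against 1 h, with all 2 h libraries below all others. Ddit3 had CPM values of 60.7, 63.6 and 80.2 (0 h), 53.0, 59.7 and 54.5 (1 h) and 55.2, 59.0 and 44.3 (2 h), at -0.27 ± 0.153 and -0.36 ± 0.153, and all its ImP libraries lay below all 0 h libraries. At 2 h, 7 of 24 ATF4 targets had all libraries below all 0 h libraries (Cebpg, Chac1, Cth, Ddit3, Psat1, Psph and Pycr1), where 7.87% of all genes did, and 0 had them above, where 6.82% did. Among the ER chaperones 2 (Creld2 and Pdia6) lay below and 1 (Ern1) above at that time. At 1 h, 4 ATF4 targets (Cebpg, Cth, Ddit3 and Psat1) and 0 ER chaperones lay below all 0 h libraries (all genes 5.01%) and 0 and 0 above (all genes 3.9%). Between 2 h and 1 h, 2 (Chac1 and Psph) and 1 (Creld2) lay below (all genes 4.24%) and 0 and 0 above (all genes 3.6%). Nupr1 had CPM values of 343, 260.0 and 349 (0 h), 297, 249 and 186 (1 h) and 280.5, 242 and 269 (2 h), at -0.36 ± 0.140 for 1 h. Gdf15 had CPM values of 60.1, 51.7 and 60.7 (0 h), 54.5, 39.99 and 46.0 (1 h) and 46.8, 53.1 and 45.7 (2 h), at -0.28 ± 0.131. Both overlapped between the times. Psph had CPM values of 48.6, 36.6 and 49.5 (0 h), 39.3, 39.8 and 52.1 (1 h) and 35.8, 34.4 and 32.7 (2 h), at -0.37 ± 0.163 for 2 h against 0 h and -0.36 ± 0.164 for 2 h against 1 h. Slc7a11 had CPM values of 22.1, 16.5 and 20.7 (0 h), 27.7, 20.5 and 14.1 (1 h) and 28.1, 25.9 and 20.9 (2 h), at 0.27 ± 0.212 for 2 h against 1 h. The 2 h libraries were the lowest for Psph, and the times overlapped for Slc7a11.

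Among the ER genes of aortic-labelled cells, Syvn1 had CPM values of 20.1, 15.6 and 12.8 (0 h), 28.9, 20.2 and 19.5 (1 h) and 24.6, 16.5 and 27.8 (2 h), at 0.51 ± 0.233 and 0.52 ± 0.233. Edem1 had CPM values of 75.4, 58.7 and 31.6 (0 h), 85.4, 67.4 and 74.2 (1 h) and 84.9, 71.9 and 73.4 (2 h), at 0.47 ± 0.230 and 0.48 ± 0.230, for 1 h and 2 h. Sel1l had CPM values of 137, 113 and 70.8 (0 h), 173, 123 and 137 (1 h) and 162, 125 and 119 (2 h), at 0.44 ± 0.201 for 1 h. In all 3 genes the third 0 h library was the lowest of the 9. Manf had CPM values of 211, 164 and 222 (0 h), 178, 167 and 153 (1 h) and 160.5, 176 and 167 (2 h), at -0.24 ± 0.113 and -0.23 ± 0.113. The times overlapped in Manf. Hspa5 was at 0.10 ± 0.101 for 1 h and 0.00059 ± 0.101 for 2 h. Creld2 had CPM values of 91.9, 75.8 and 79.2 (0 h), 85.9, 77.6 and 90.8 (1 h) and 73.2, 73.5 and 74.5 (2 h), at -0.21 ± 0.117 for 2 h against 1 h. Sdf2l1 had CPM values of 30.6, 27.04 and 28.5 (0 h), 26.1, 30.1 and 38.2 (1 h) and 23.4, 28.7 and 28.98 (2 h), at -0.23 ± 0.189. Pdia6 had CPM values of 662, 613 and 777 (0 h), 683, 594 and 637 (1 h) and 587, 606 and 592 (2 h), at -0.11 ± 0.101. The 2 h libraries of Creld2 lay below all others, and those of Sdf2l1 and Pdia6 overlapped the 1 h libraries.

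**Figure D3:**
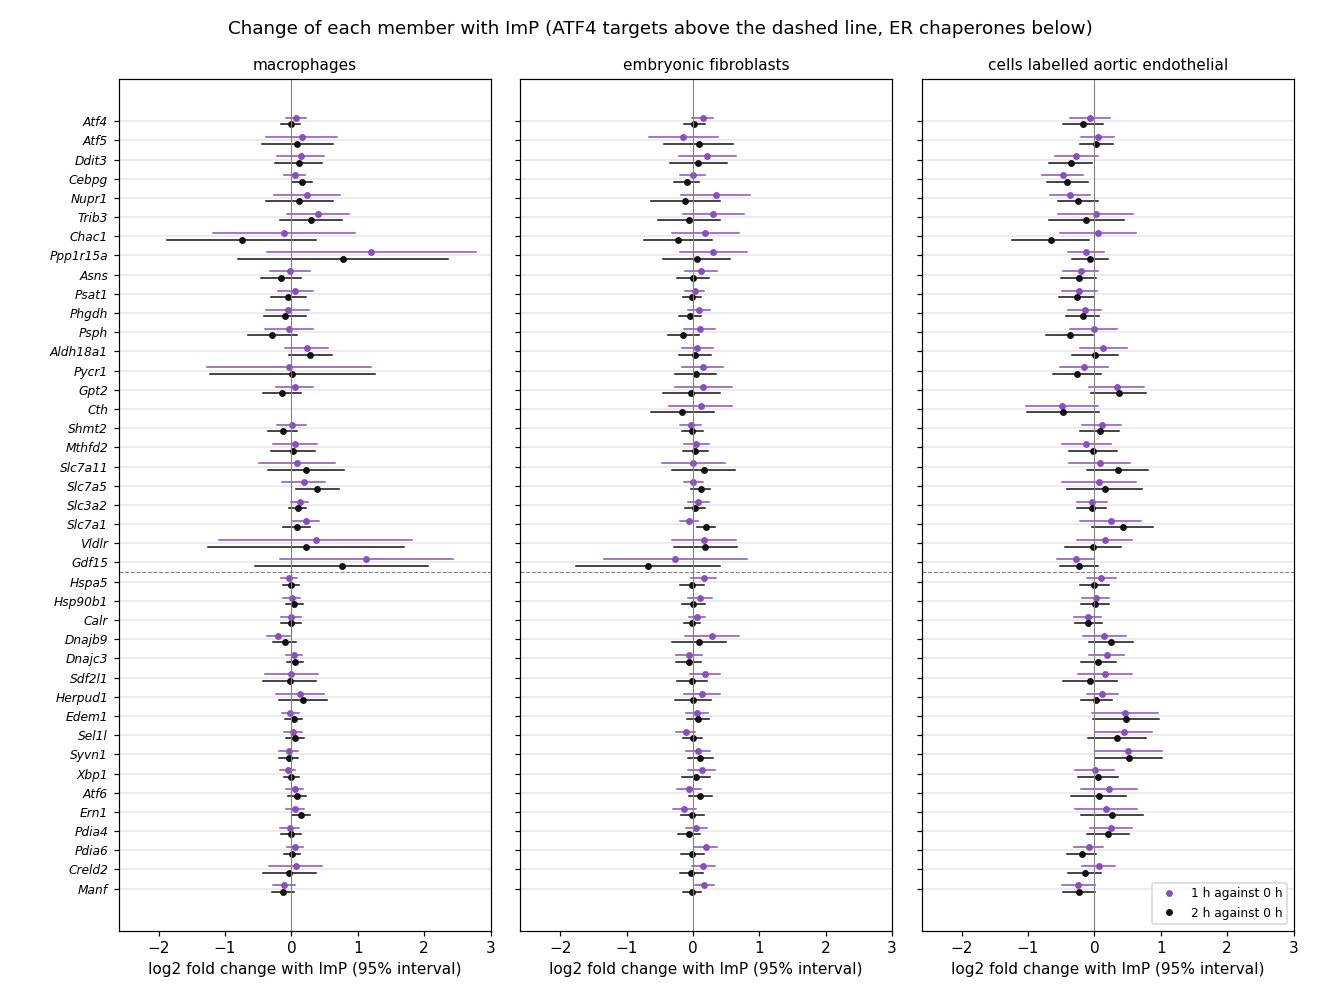
Log2 fold change of each member after 1 h and 2 h of ImP against 0 h, with 95% intervals from edgeR, in panels for macrophages (BMDM), fibroblasts (MEF) and aortic-labelled cells (MAEC). No member passed the threshold in any panel, the widest intervals are those of Ppp1r15a, Vldlr and Gdf15 in macrophages, and Cth was not tested there.

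The change with ImP was also compared between cell types, as an interaction term, and no member passed as labelled. For macrophages minus fibroblasts edgeR called 0.0% of 15389 genes at 1 h and 0.0% at 2 h, with 1204 and 539 at an unadjusted p under 0.05, and the medians of the ATF4 targets were 0.028 and -0.027 and of the ER chaperones -0.10 and -0.0065. For aortic-labelled cells minus fibroblasts it called 0.0% of 16334 genes at each time, with 1370 and 924 at an unadjusted p under 0.05, and for aortic-labelled cells minus macrophages 0.0184% and 0.0553% of 16265, with 880 and 1043. DESeq2 and limma-voom called 0 members in these 6 comparisons, and at an unadjusted p under 0.05 edgeR gave at most 4 ATF4 targets and 2 ER chaperones in any. The 4 comparisons with aortic-labelled cells were added after values were seen. Without the third macrophage library of each ImP group, Ppp1r15a (-1.72 ± 0.179, edgeR adjusted p = 7.95e-05) and Gdf15 (-1.78 ± 0.165, edgeR adjusted p = 1.76e-05) had lower 1 h changes in aortic-labelled cells than in macrophages, where 0.196% of 16829 genes did. For macrophages minus fibroblasts in that fit they were 1.28 ± 0.283 (edgeR adjusted p = 0.140) and 1.76 ± 0.382 (edgeR adjusted p = 0.0889) and did not pass. The libraries left out were picked from their own values, and both genes share the layout that set them apart. The p-values of that fit are thus not an independent test. None of the 17 ER chaperones passed by edgeR in either fit at either time, and at most 1 was at an unadjusted p under 0.05 in the fit without those libraries. The mean log2 deviation of each list was also taken library by library from the mean over the 9 libraries of its cell type, as a description. In macrophages the ATF4 targets had -0.039, -0.14 and -0.12 at 0 h, 0.085, 0.22 and -0.011 at 1 h and -0.052, -0.053 and 0.12 at 2 h. As labelled, all 1 h libraries thus lay above all 0 h libraries, the third at -0.011 where the highest 0 h library had -0.039. This mean includes Ppp1r15a and Gdf15, both high in the first and second 1 h libraries, and the mean without them is not given. By gene, 3 of 23 ATF4 targets had all 1 h libraries above all 0 h libraries (all genes 4.63%). The log2 fold change at 1 h was above 0 for 18 of 23 (all genes 51.02%), with a median of 0.077 (all genes 0.0028). Whether the list as a whole shifted was not tested. The ER chaperones of macrophages lay between -0.035 and 0.025 over the 9 libraries. In fibroblasts the ATF4 targets had -0.17, 0.11 and -0.077 at 0 h, 0.22, 0.062 and -0.11 at 1 h and 0.093, 0.038 and -0.17 at 2 h. No time stood clear of the others, and the ER chaperones lay between -0.091 and 0.15. In aortic-labelled cells the ATF4 targets had 0.13, -0.026 and 0.10 at 0 h, 0.13, -0.085 and -0.10 at 1 h and 0.058, -0.070 and -0.13 at 2 h, again overlapping, and the ER chaperones lay between -0.21 (the third 0 h library) and 0.22 (the first 1 h library).

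**Figure D4:**
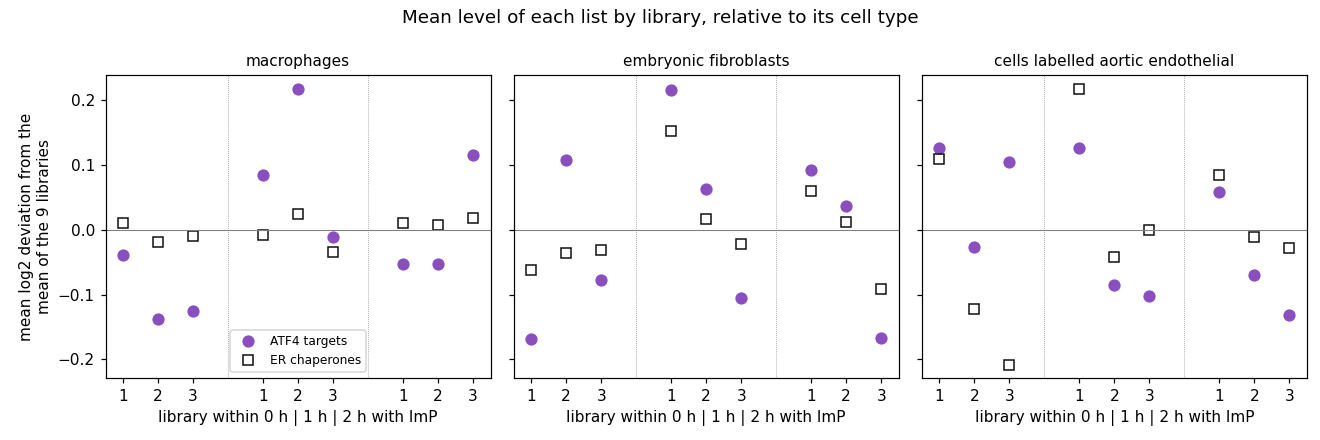
Mean log2 deviation of the ATF4 targets and of the ER chaperones in each library from their mean over the libraries of the same cell type, at 0, 1 and 2 h of ImP, in panels for macrophages (BMDM), fibroblasts (MEF) and aortic-labelled cells (MAEC). In macrophages all 1 h points of the ATF4 targets, a mean that includes Ppp1r15a and Gdf15, lie above all 0 h points. The ER chaperones of macrophages stay near 0. In fibroblasts the first 1 h library is the highest in both lists, and in aortic-labelled cells the third 0 h library is the lowest in the ER chaperones.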

How the data were processed

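Bulk RNA sequencing of 27 libraries was deposited as 1 table of whole-number estimated counts for 25192 gene symbols. The submitters' processing notes name cutadapt, FastQC, STAR, RSEM, DESeq2, R 4.3.2, GRCm38.p6 and mm10, with no role, order or strand setting, and per those notes the authors' deposited values are taken as RSEM expected counts, which were already whole. They were used as deposited. Replicate libraries were compared, and the lowest chi-square per degree of freedom over 27 pairs was 5.69, so none counted as a repeat of another.

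The main test was the quasi-likelihood test of edgeR 4.0.16 (R 4.3.3) with a minimum count of 10, TMM scaling and Benjamini-Hochberg adjustment over all genes tested, at a threshold of 0.05. Each cell type was fitted on its 9 libraries, and each pair of cell types on its 18. DESeq2 1.42.0, limma-voom (limma 3.58.1), other scalings and filters (among them a minimum of 1 CPM), a fold minimum, other sets of libraries and leaving out each library were alternatives. The tests were checked on simulated data with 200 genes changed between 1 h and 0 h in each cell type. Of 2-fold changes, 81% were found in macrophages, 83% in fibroblasts and 52% in aortic-labelled cells. Of 1.5-fold changes, 67%, 67% and 15% were found, so many such changes would be missed in aortic-labelled cells. All the genes changed averaged 1 CPM or more. The ImP comparisons within a cell type called at most 4 genes as labelled, and the adjusted threshold is stricter where fewer genes change. The rates are thus likely too high for a single changed member. Intervals of fold changes are 95% intervals from the SE of edgeR; those of count ratios cover counting error only, and reads carry no molecular identifiers. List means by library are means of log2(CPM + 0.5). Python 3.11.15, pandas 2.3.3, scipy 1.17.1 and matplotlib 3.10.9 were used for the rest.

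The members and lists were chosen with earlier results of these data known, and the list names are those of the given list. Values by library are given for members that passed and, where fewer than 3 passed within a cell type, for the 3 of each list with the smallest p. Between unstimulated cell types they are given for up to 4 members of each list in each direction with the largest fold changes, and members that did not pass are named. Up to 3 genes of each further list are named by smallest p. Other members described by library were chosen after their values were seen. Exon lengths, gene spans and overlaps are from GENCODE M21 (GRCm38.p6), and promoter windows from RefSeq on the same build.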

Additional observations from a re-analysis of the deposited data

Results flagged for a closer look

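Cebpg, the dimerisation partner of ATF4, had opposite directions in 2 cell types at 2 h of ImP. All aortic-labelled libraries at 2 h lay below all at 0 h (log2 fold change -0.41). All macrophage libraries at 2 h, as labelled, lay above all at 0 h (log2 fold change 0.16). The difference of the 2 changes, aortic-labelled cells minus macrophages, was -0.57 ± 0.165 (SE) on the log2 scale and did not pass its own test (edgeR adjusted p = 0.432).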

How the results depend on the processing

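Counts of called members kept their direction and lay within 1.5 times of the reported value for 1775 values over the alternatives run, and 13 did not. For single members, 5520 values kept their direction and side of the threshold, 40 lost and 22 gained a call and 26 turned their sign, and of the list medians 836 stayed within their spread and 22 did not. Without the third macrophage library of each ImP group, ATF4 targets called at 1 h were 2 higher, and between 2 h and 1 h 2 lower. For aortic-labelled cells minus macrophages at 1 h they were 2 lower. With all libraries 0 were called in each. Those libraries were picked from their own values, so these calls are not an independent test. DESeq2 called 1 ATF4 target higher at 2 h than at 1 h in fibroblasts (Slc7a1), as did edgeR without the first 1 h library and in no other of the fits that left out 1 library (0 to 1). With all 27 libraries in 1 model, 1 ATF4 target (Cebpg) was lower in aortic-labelled cells at 1 h and 1 at 2 h.

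Where a 2-fold difference was also required (1 on the log2 scale), only the counts that did not lie within 1.5 times are listed here. Unstimulated macrophages against fibroblasts had 3 ATF4 targets higher and 2 ER chaperones lower (5 and 5 without that minimum). Aortic-labelled cells against fibroblasts had 5 ATF4 targets higher, 5 lower and 7 ER chaperones higher (11, 9 and 11 without it). Aortic-labelled cells against macrophages had 6 ER chaperones higher (10 without it). The ATF4 targets lower in macrophages than in fibroblasts were 18 to 19 over the alternatives. Shares of all genes at that minimum are not given, so these counts cannot be set against them. Some log2 fold changes turned their sign. Ppp1r15a at 2 h in macrophages was -0.059 without the third library of each ImP group and -0.059 to 1.06 over single libraries left out, and for macrophages minus fibroblasts -0.110 and -0.109 to 0.996. With library totals alone Hspa5 was -0.084 and Calr -0.321 in macrophages against fibroblasts. For aortic-labelled cells against fibroblasts, library totals alone gave Slc3a2 -0.071, Cebpg -0.0168 and Calr -0.145, Calr was -0.0042 with no filter, and over single libraries left out Slc3a2 was -0.045 to 0.138, Cebpg -0.0200 to 0.209 and Calr -0.070 to 0.050. For aortic-labelled cells against macrophages, Atf4 was 0.062 with library totals alone and -0.235 to 0.0198 over single libraries left out, and Calr was -0.0151 with DESeq2, -0.0151 with RLE scaling, -0.100 with only the groups compared, -0.061 with all 27 libraries and -0.0335 to 0.078 over single libraries left out. In each case the cause was not tested.

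Library codes form runs of 1 number in each group, but the numbers share no named animal, litter or day. Deviations of libraries with the same number correlated at -0.379 to 0.135 in macrophages, -0.118 to 0.401 in fibroblasts and -0.0475 to 0.229 in aortic-labelled cells, and 0, 4 and 4 of 9 libraries correlated best with their own number. The fit with these runs as a replicate block called 0 members with ImP, as the fit without it did. With 3 libraries a group and a biological coefficient of variation of 0.326, the aortic-labelled cells had the least precise fold changes, and members averaging under 1 CPM in unstimulated macrophages (Chac1, Cth, Pycr1, Vldlr) rest on few counts.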
